A study of Homo sapiens with 6 samples.

Results

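The 39 genes described here are the 13 mRNAs encoded by mitochondrial DNA, with symbols that start with MT-, and 26 nuclear genes whose products copy, transcribe, process or translate that DNA. They were chosen by symbol, and all 39 were found among the 19845 gene symbols of the deposited count table and passed the filter on low counts. RNA was sequenced from 6 bulk cultures of Molm13, a human acute myeloid leukemia line with an MLL rearrangement. Every group stably expressed the Cas9 nuclease and received its guide from the ipUSEPR vector by lentiviral infection. That vector carries a puromycin-resistance gene, and the paper describes puromycin selection for its screens of guide libraries. In 3 cultures the guides were controls against non-essential sequences (sgCtrl #1 to #3), and in 3 they targeted COX4I1 (sgCOX4I1 #1 to #3), which encodes a nuclear subunit of Complex IV. The numbers mark different guide sequences, so the spread within a group holds differences between guides as well as between cultures. In bulk RNA, a lower level in every cell cannot be told apart from a loss in some of the cells.

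Human mitochondrial DNA is a small circle that is transcribed from both strands into long precursors. Most mRNAs lie between tRNAs, and the cutting out of the tRNAs frees them, a layout known as tRNA punctuation; MTPAP then adds the poly(A) tails. The mRNAs encode membrane subunits of Complexes I, III and IV and of the ATP synthase, Complex V. All proteins that copy, read, cut, stabilise and translate them are made from nuclear genes.

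No member was called changed between sgCOX4I1 and sgCtrl. In edgeR's quasi-likelihood fit, adjusted by Benjamini-Hochberg over 11861 genes, 0 of the 39 had an adjusted p under 0.05, where 1.06% of all genes tested were called higher and 1.02% lower. At an unadjusted p under 0.05, 7 members were higher and 0 were lower, against 8.9% and 8.41% of all genes. With Benjamini-Hochberg adjustment in each, DESeq2 called 1 member, MT-ND3, higher, where it called 1.86% of all genes higher. Without the filter on low counts, edgeR called 1, MT-ND3 again, where 1.89% of all genes were called higher, and limma-voom called 0. A fit with the guide number as a block called more members, all higher, and is described in the last section. The point estimates leaned upward, with 30 of 39 members above 0 against 49.4% of all genes, and with a median log2 fold change of 0.10 against -0.0023. The related lists described below leaned upward too. In them, 52 of 76 other genes that serve the same tasks and 51 of 74 nuclear subunits of the respiratory complexes were above 0.

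The depth was 17241014 to 30861943 counts per library, and the values below are CPM, counts per 1000000 of the TMM-normalized library size, unless a sentence says otherwise. COX4I1, the targeted gene, stood at 513, 502 and 463 CPM in sgCtrl #1, #2 and #3 and at 132, 378 and 133 CPM in sgCOX4I1 #1, #2 and #3. The sgCOX4I1 #2 library was the nearest to the controls (log2 fold change of the groups -1.21, standard error 0.29, adjusted p = 0.0512 from edgeR). All 13 myeloid markers examined averaged above 1 CPM, and their summed level was 3517 to 4348 CPM in sgCtrl and 4018 to 5251 CPM in sgCOX4I1. Of these, edgeR called MPO, a granule enzyme, lower (log2 fold change -1.06, adjusted p = 1.595e-05) and no other, and at an unadjusted p under 0.05 FLT3 and HOXA9 were also lower (-0.23 and -0.21) and LYZ higher (0.77). Their part in the values of the 39 genes was not tested. The 6 erythroid and platelet markers were at 0 in every library. Of the lymphoid markers NKG7 alone passed 1 CPM, and of the epithelial and stromal ones PECAM1 was highest, at 189 CPM.

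The annotated ends of the mitochondrial protein-coding genes show, in part, the punctuation layout on which several of these nuclear genes act. The last 18 bases of 8 of them are given 5′ to 3′, from the mitochondrial chromosome of GRCh38, with the stop codon, or the part of it that the DNA encodes, in capitals. They were chosen because they hold both kinds of ending and belong to the mRNAs described most closely below.
MT-ND2: ttatactaataatcttaT
MT-ND3: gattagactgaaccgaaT
MT-ND4: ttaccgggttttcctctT
MT-ND4L: aacctactccaatgcTAA
MT-ATP6: ctgcacgacaacacaTAA
MT-ATP8: ttgcccccacaatccTAG
MT-CO1: gtatacataaaatctAGA
MT-ND6: attgctcgggggaatAGG
The ND6 sequence is that of the minus strand, at chrM:14149-14673, and the others are on the plus strand. MT-ND2 at chrM:4470-5511, MT-ND3 at chrM:10059-10404 and MT-ND4 at chrM:10760-12137 each end directly before a tRNA gene, with a single T that the poly(A) tail completes to a stop codon. Of the other ends printed, those of MT-ND4L, MT-ATP8 and MT-ATP6 overlap the next gene. MT-CO1 ends 72 bases before the next gene on its strand, and MT-ND6 ends 6634 bases before the next on its own. In all, 6 of the 13 annotated genes ended in part of a stop codon, and 7 in a whole one.

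A pair of mRNAs carry 2 reading frames each. MT-ATP8 at chrM:8366-8572 and MT-ATP6 at chrM:8527-9207 share 46 bases, which are 22.2% of MT-ATP8. They are printed because they bear on how reads were divided between both genes, with the first capitals marking the start codon of MT-ATP6 and the last the stop codon of MT-ATP8.
overlap: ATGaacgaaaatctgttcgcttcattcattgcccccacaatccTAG
MT-ND4L at chrM:10470-10766 and MT-ND4 share 7 bases in the same way. Counting with HTSeq, which the name of the deposited table points to, skips reads shared by several genes unless told otherwise, and the setting used is not given in the sources used here.

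Mitochondrial mRNAs took a similar share of the libraries of both groups. Their share of all gene counts was 2.93%, 3.97% and 4.84% in sgCtrl #1, #2 and #3 and 3.26%, 3.65% and 4.99% in sgCOX4I1 #1, #2 and #3. The groups overlapped over nearly their whole range, with means of 3.91% ± 0.955 and 3.96% ± 0.906 (SD, n = 3 each). The same held relative to the nuclear subunits of Complexes I, III, IV and V, where the count ratio of mitochondrial to nuclear transcripts was 2.81, 3.97 and 5.46 in sgCtrl and 3.05, 3.61 and 5.39 in sgCOX4I1. The nuclear sum, 174770 to 285288 counts per library, includes the targeted COX4I1. That gene gave 9411, 9239 and 9415 counts in sgCtrl and 2956, 6495 and 4158 in sgCOX4I1, and the ratio was not computed without it. In both groups the #1 library was lowest and the #3 library highest, and the distance between them exceeded that between the group means.

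**Figure D1:**
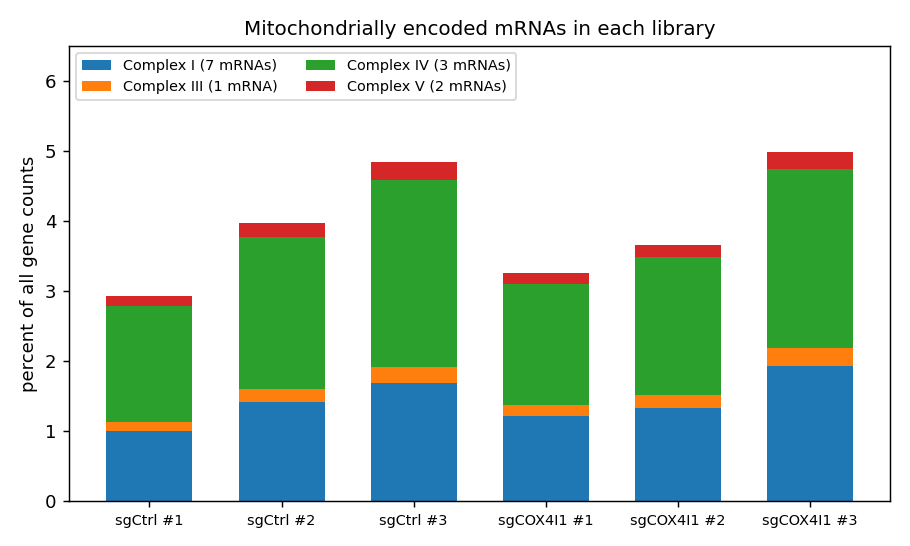
Percent of all gene counts (vertical axis) that fell on mitochondrially encoded mRNAs in each of the 6 libraries, with the bars divided by respiratory complex. The #1 library was lowest and the #3 library highest in both groups, and the group means were 3.91% and 3.96%.

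The order of the libraries was shared by most of the mRNAs. Of the 13, 11 were lowest in sgCtrl #1 and 11 highest in sgCtrl #3 among the controls, and 10 were lowest in sgCOX4I1 #1 and 11 highest in sgCOX4I1 #3 among the knockouts. MT-CO2 varied least, with a 1.29-fold distance between its highest and lowest library, and MT-ND6 most, with 3.89-fold. MT-ND3 broke the order in both groups, at 0.978-fold in sgCtrl #3 relative to sgCtrl #1 and 0.882-fold in sgCOX4I1 #3 relative to sgCOX4I1 #1. MT-ATP8 broke it in sgCtrl, at 0.966-fold, and followed it in sgCOX4I1, at 1.54-fold. In sgCOX4I1, MT-ND1 and MT-CO3 were lowest and MT-ND6 highest in #2. Among nuclear genes, transcript length moved with the same libraries. Nuclear genes under 1000 bases had a median log2 ratio of -0.25 in sgCtrl #3 over sgCtrl #1 and of -0.22 in sgCOX4I1 #3 over #1. Those of at least 5000 bases had 0.06 and 0.07. Short nuclear genes thus stood lower in #3, where most of the mitochondrial mRNAs, annotated at 207 to 1812 bases, stood higher. The part of transcript length in the levels of the mitochondrial mRNAs was not tested.

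**Figure D2:**
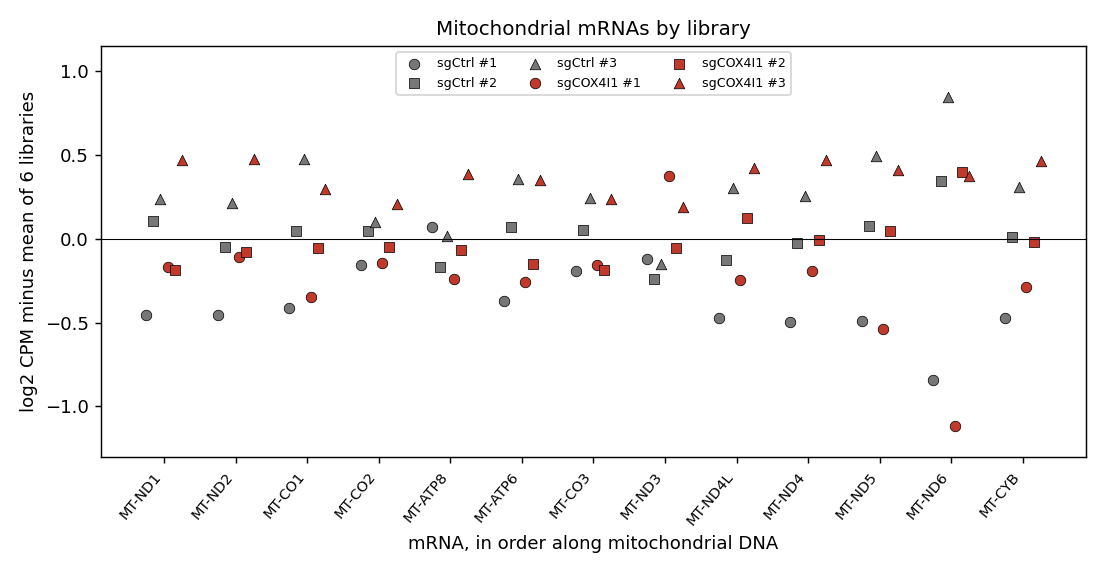
Log2 CPM of each mitochondrial mRNA minus its mean over the 6 libraries (vertical axis), with the mRNAs in their order along the mitochondrial DNA (horizontal axis). Gray points are sgCtrl and red points sgCOX4I1, circles, squares and triangles are #1, #2 and #3; circles lie low and triangles high for most mRNAs, with the widest spread, 3.89-fold, for MT-ND6.

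Complex I takes electrons from NADH, and 7 of its membrane subunits are encoded by mitochondrial DNA. MT-ND3, a small subunit at the junction of the arms of the complex, stood at 387, 356 and 378 CPM in sgCtrl #1, #2 and #3 and at 544, 405 and 479 CPM in sgCOX4I1 #1, #2 and #3. Every sgCOX4I1 library lay above every sgCtrl library, as was also so for 11.2% of all genes tested. Its log2 fold change was 0.35 (standard error 0.10, 95% interval 0.14 to 0.56, adjusted p = 0.0837 from edgeR), the largest among the 39, and its adjusted p was 0.0192 in DESeq2 and 0.0209 in edgeR without the filter on low counts. Over all alternatives the adjusted p of MT-ND3 ran from 0.001855 to 0.353, and it was highest when sgCtrl #2 was left out. Against the sgCtrl library of the same number, MT-ND3 was higher by 0.49, 0.19 and 0.34 on the log2 scale for #1, #2 and #3.

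MT-ND2, a proton-pumping subunit, stood at 1993, 2641 and 3162 CPM in sgCtrl and 2528, 2587 and 3798 CPM in sgCOX4I1, in the order #1, #2, #3 that is kept for all values below. The groups overlapped, and the log2 fold change was 0.19 (95% interval -0.17 to 0.56). MT-ND4, another pumping subunit, stood at 2743, 3789.6 and 4613 CPM against 3375, 3837 and 5341 CPM. MT-ND4L, made from the same mRNA as MT-ND4, stood at 178, 227 and 305 CPM against 209, 270.1 and 331 CPM. Both overlapped between groups although each sgCOX4I1 library exceeded the sgCtrl library of its number, with log2 fold changes of 0.17 and 0.19. MT-ND1, a subunit at the quinone site, was at 3194, 4703 and 5152 CPM against 3897, 3839.6 and 6063 CPM (log2 fold change 0.08).

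MT-ND5 and MT-ND6 had estimates of the other sign. MT-ND5, the pumping subunit at the far end of the membrane arm, stood at 1539, 2287 and 3044 CPM in sgCtrl and 1491, 2241 and 2882 CPM in sgCOX4I1. Its groups covered nearly the same range (log2 fold change -0.05, 95% interval -0.54 to 0.43). MT-ND6, whose mRNA is the only one of the 13 read from the other strand, stood at 58.6, 134 and 189 CPM in sgCtrl and 48.5, 139 and 136 CPM in sgCOX4I1. Both #1 libraries were far below the other 4, and the 95% interval of the log2 fold change of -0.24 ran from -1.02 to 0.54. The 12 other mRNAs together had 505, 295 and 256 counts for each MT-ND6 count in sgCtrl and 670, 263 and 360 in sgCOX4I1. This ratio of counts also overlapped between groups. It reflects a balance of the strands only if strand was used in counting, which the sources used here do not state.

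MT-CYB, the cytochrome b subunit and the one Complex III mRNA of mitochondrial DNA, stood at 1336, 1873 and 2301 CPM in sgCtrl and 1519, 1829 and 2561 CPM in sgCOX4I1. These ranges overlapped (log2 fold change 0.10, 95% interval -0.31 to 0.51, adjusted p = 0.829 from edgeR).

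The mRNAs for the catalytic core of Complex IV, the complex to which the targeted COX4I1 protein belongs, showed no called change. MT-CO1, which carries the oxygen-reducing site, stood at 9744, 13357 and 18007 CPM in sgCtrl and 10167, 12462 and 15922 CPM in sgCOX4I1. The sgCOX4I1 range lay inside the sgCtrl range (log2 fold change -0.09, 95% interval -0.52 to 0.33, adjusted p = 0.852 from edgeR). MT-CO2, which receives electrons from cytochrome c, stood at 3403, 3923 and 4064 CPM against 3439, 3672 and 4389 CPM. MT-CO3, the third core subunit, stood at 3594, 4270.3 and 4867 CPM against 3688, 3620.0 and 4855 CPM. Both ranges overlapped widely, with log2 fold changes of 0.01 for MT-CO2 (95% interval -0.23 to 0.25) and -0.07 for MT-CO3 (-0.35 to 0.22).

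Complex V makes ATP, and MT-ATP6, which forms part of its proton channel, stood at 1473, 2002 and 2437 CPM in sgCtrl and 1591, 1718 and 2431 CPM in sgCOX4I1. The ranges overlapped (log2 fold change -0.04, 95% interval -0.41 to 0.33). MT-ATP8, from the same mRNA, had only 9.16, 7.76 and 8.84 CPM in sgCtrl and 7.39, 8.31 and 11.4 CPM in sgCOX4I1, which rested on 143 to 357 counts per library (log2 fold change 0.09, 95% interval -0.28 to 0.46).

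Although MT-ATP8 and MT-ATP6 lie on one mRNA, their levels per kilobase were far apart. On the scale of CPM per kilobase of annotated transcript, MT-ATP6 stood 69.7-fold above MT-ATP8 in sgCtrl and 64.3-fold in sgCOX4I1, and MT-ND4 stood 3.39-fold above MT-ND4L in sgCtrl. These differences coincide with genes that are short and share bases with a neighbour, and the part of counting in them was not tested. MT-CO1 had the highest level per kilobase of the 39 members, at 8883 ± 2685 CPM per kilobase in sgCtrl, followed by MT-CO2 at 5548 ± 508 and MT-CO3 at 5411 ± 811 (SD, n = 3), of which the last 2 did not differ beyond their spread. MT-ND6 was lowest of the mitochondrial mRNAs other than MT-ATP8, at 242 ± 124 CPM per kilobase. The highest nuclear member, TUFM, had 192 ± 4.24 CPM per kilobase, and MT-CO1 exceeded it 46.2-fold.

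Relative to each other, the Complex I mRNAs took more and the Complex IV mRNAs less of the mitochondrial total in sgCOX4I1. The counts of the 7 Complex I mRNAs divided by those of the 3 Complex IV mRNAs gave 0.603, 0.656 and 0.625 in sgCtrl and 0.699, 0.674 and 0.756 in sgCOX4I1. Every sgCOX4I1 library was above every sgCtrl library, but the gap was narrow, from 0.656 to 0.674, and it involved the #2 libraries on both sides. The means were 0.628 ± 0.0266 and 0.710 ± 0.0420 (SD, n = 3 each), and the differences between libraries of the same number were 0.0963, 0.0183 and 0.131. This ratio was chosen after the values had been seen and sums members, so it was given no test, and no share of all genes can be set beside it.

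The shares of single mRNAs within the 13 were compared as well, including those of mRNAs that are not part of that ratio. MT-ND2 held 6.72%, 6.67% and 6.52% of the mitochondrial counts in sgCtrl and 7.78%, 7.06% and 7.72% in sgCOX4I1. MT-ND4 held 9.25%, 9.58% and 9.51% in sgCtrl and 10.4%, 10.5% and 10.9% in sgCOX4I1. Both mRNAs held a larger share in each sgCOX4I1 library than in any sgCtrl library, and so did MT-ND4L, at a mean of 0.684% ± 0.0487 against 0.600% ± 0.0274. MT-ATP6 held less, 4.97%, 5.06% and 5.02% in sgCtrl and 4.90%, 4.69% and 4.94% in sgCOX4I1. MT-CO1, the largest at 34.6% ± 2.24 and 32.6% ± 1.38, overlapped between groups, as did the other 8 mRNAs. Shares within a total depend on each other and were not tested.

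Among the nuclear members, 5 genes were grouped under mitochondrial transcription, including TFB1M, which is an rRNA methyltransferase. All 5 had estimates above 0, with a median log2 fold change of 0.20 beside -0.0023 for all genes. TFAM (chr10:58385345-58399220, plus strand), which packages mitochondrial DNA and bends its promoters, stood at 79.2, 69.6 and 67.1 CPM in sgCtrl and 88.1, 80.7 and 79.5 CPM in sgCOX4I1. The lowest sgCOX4I1 library was just above the highest sgCtrl library (log2 fold change 0.20, standard error 0.08, adjusted p = 0.227 from edgeR). TFB2M, the factor that opens the promoter with the polymerase, stood at 32.8, 30.2 and 26.6 CPM against 40.0, 34.2 and 32.3 CPM. Its groups overlapped by 1 library (log2 fold change 0.25, standard error 0.11, adjusted p = 0.248 from edgeR). The other genes of this group ranged in log2 fold change from 0.03 for POLRMT, the mitochondrial RNA polymerase, to 0.21 for TEFM, the elongation factor. TFB1M had 0.14. POLRMT ranged from 154 to 169 CPM in sgCtrl and from 156 to 175 CPM in sgCOX4I1, TFB1M from 25.5 to 31.6 and from 29.2 to 33.5 CPM, and TEFM from 11.5 to 13.4 and from 12.8 to 15.3 CPM, so all 3 overlapped. TFB1M shares 45.2% of its annotated exonic bases with TIAM2 on the opposite strand, and reads from both could be told apart only if strand was used in counting.

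The 4 genes of mitochondrial DNA upkeep had a median log2 fold change of 0.03. POLG, the catalytic subunit of the DNA polymerase, lay between 115.0 and 116.4 CPM in sgCtrl and between 113.8 and 114.7 CPM in sgCOX4I1, and was the 1 member whose sgCOX4I1 libraries all lay lower, as did 10.4% of all genes. This separation came with a log2 fold change of only -0.02 (95% interval -0.17 to 0.13), and POLG shares 27.2% of its exonic bases with other genes, including FANCI. RNASEH1, which removes RNA from hybrids with DNA, ranged from 12.4 to 14.8 CPM in sgCtrl and from 15.4 to 16.4 CPM in sgCOX4I1, without overlap (log2 fold change 0.23, adjusted p = 0.329 from edgeR). It shares 19.2% of its exonic bases with another annotated gene on the same strand. POLG2, the accessory subunit of the polymerase, and SSBP1, the single-strand binding protein, had log2 fold changes of 1.43e-05 and 0.07. POLG2 ranged from 38.1 to 41.7 CPM in sgCtrl and from 37.2 to 43.2 CPM in sgCOX4I1, and SSBP1 had means of 82.9 ± 8.65 and 86.8 ± 11.8 CPM (SD, n = 3 each).

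**Figure D3:**
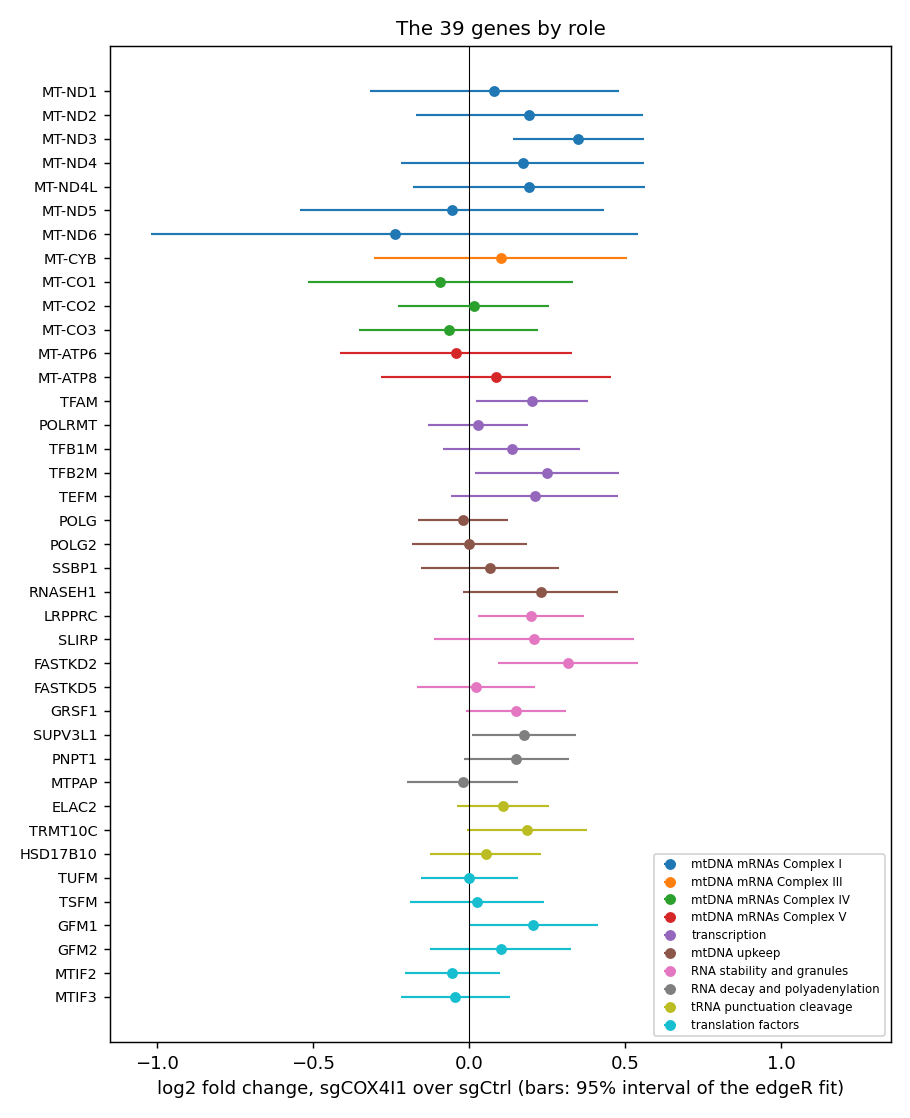
Log2 fold change of sgCOX4I1 over sgCtrl (horizontal axis) for each of the 39 members, colored by role, with bars for the 95% interval of the edgeR fit. The bars of the mitochondrial mRNAs are wider than those of most nuclear members, and the interval of MT-ND6 reaches from -1.02 to 0.54.

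The 5 genes that stabilise mitochondrial RNA or sit in mitochondrial RNA granules had log2 fold changes from 0.02 to 0.32. FASTKD2 (chr2:206765357-206796189, plus strand), an RNA-binding granule protein, stood at 26.0, 23.3 and 23.6 CPM in sgCtrl and 32.3, 32.1 and 26.6 CPM in sgCOX4I1. The sgCOX4I1 #3 library was close to sgCtrl #1 and the other 2 were well above (log2 fold change 0.32, standard error 0.10, adjusted p = 0.136 from edgeR). LRPPRC (chr2:43886224-43996226, minus strand), which binds and stabilises mitochondrial mRNAs, stood at 446, 385 and 401 CPM against 474, 452 and 485 CPM. Its groups were also separate (log2 fold change 0.20, standard error 0.08, adjusted p = 0.215 from edgeR). SLIRP, the partner of LRPPRC, had a similar log2 fold change of 0.21 but a wide spread, from 27.6 to 41.8 CPM in sgCtrl and from 34.1 to 49.2 CPM in sgCOX4I1. GRSF1, which organises the granules, ranged from 121 to 135.7 CPM in sgCtrl and from 136.4 to 146 CPM in sgCOX4I1, just without overlap (log2 fold change 0.15). FASTKD5, a factor for ends without tRNA punctuation, ranged from 35.9 to 40.8 and from 36.2 to 39.9 CPM (log2 fold change 0.02).

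Of the RNA decay and polyadenylation genes, SUPV3L1, the helicase of the mitochondrial degradosome, stood at 74.1, 65.9 and 67.8 CPM in sgCtrl and 81.2, 78.5 and 75.0 CPM in sgCOX4I1. The distance between sgCtrl #1 and sgCOX4I1 #3 was small (log2 fold change 0.18, standard error 0.08, adjusted p = 0.257 from edgeR). PNPT1, the exonuclease that works with SUPV3L1, ranged from 78.0 to 87.1 CPM in sgCtrl and from 87.5 to 97.9 CPM in sgCOX4I1 (log2 fold change 0.15). MTPAP, the poly(A) polymerase that completes the stop codons shown above, ranged from 45.0 to 48.6 CPM and from 44.4 to 50.2 CPM (log2 fold change -0.02, 95% interval -0.20 to 0.16).

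The cutters of the tRNA punctuation ranged in log2 fold change from 0.05 to 0.19. ELAC2, which cuts at the 3′ ends of tRNAs, had 138 to 147 CPM in sgCtrl and 152 to 158 CPM in sgCOX4I1, without overlap (log2 fold change 0.11). TRMT10C and HSD17B10, subunits of the RNase P complex that cuts at the 5′ ends, had log2 fold changes of 0.19 and 0.05. TRMT10C ranged from 49.8 to 51.4 CPM in sgCtrl and from 51.0 to 63.5 CPM in sgCOX4I1, and HSD17B10 from 52.2 to 56.4 and from 51.1 to 59.9 CPM, and both overlapped between groups. In all, the sgCOX4I1 libraries lay above the sgCtrl libraries without overlap for 9 of 39 members, namely MT-ND3, TFAM, RNASEH1, LRPPRC, FASTKD2, GRSF1, SUPV3L1, PNPT1 and ELAC2, where this was so for 11.2% of all genes.

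**Figure D4:**
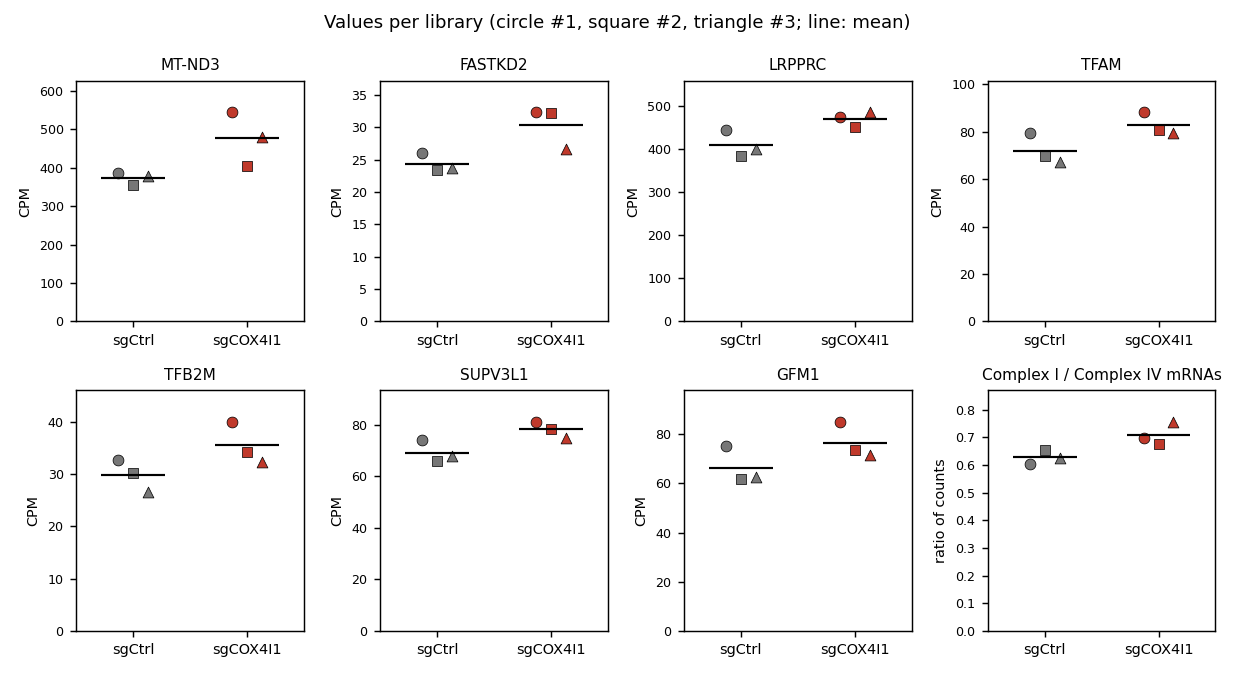
CPM per library (vertical axes, starting at 0) for the 7 members with an unadjusted p under 0.05, and the ratio of Complex I to Complex IV mitochondrial mRNA counts; gray is sgCtrl, red is sgCOX4I1, symbols mark the number and lines the means. MT-ND3 went from a mean of 374 to 476 CPM, with the groups apart, whereas TFB2M and GFM1 overlapped between groups.

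Translation factors were the group closest to 0, with a median log2 fold change of 0.01 over 6 genes. GFM1, an elongation factor for translocation, stood at 75.0, 61.7 and 62.6 CPM in sgCtrl and 85.1, 73.4 and 71.4 CPM in sgCOX4I1. Its sgCtrl #1 library exceeded 2 of the sgCOX4I1 libraries (log2 fold change 0.21, standard error 0.10, adjusted p = 0.288 from edgeR). TUFM, the elongation factor that delivers tRNAs, ranged from 379 to 396 CPM and from 371 to 407 CPM, with a 95% interval of the log2 fold change from -0.16 to 0.16. The initiation factor MTIF2 ranged from 98.9 to 102 CPM in sgCtrl and from 93.8 to 101 CPM in sgCOX4I1 (log2 fold change -0.05), and MTIF3 from 39.9 to 43.98 and from 39.9 to 41.4 CPM (-0.04). The recycling factor GFM2 ranged from 26.6 to 30.0 and from 26.5 to 33.0 CPM (0.10), and TSFM, the exchange factor of TUFM, from 38.6 to 49.9 and from 42.1 to 47.6 CPM (0.02). These 4 genes overlapped between groups. TSFM shares 96.4% of its exonic bases with other annotated genes, so its counts are uncertain. GFM2 shares 18.1% and MTIF3 18.2% of theirs.

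Genes outside the 39 that serve the same tasks gave no call either. The lists were other upkeep genes (19 genes), other transcription and RNA processing genes (36) and other translation factors (21), and edgeR called 0 in them. At an unadjusted p under 0.05, 8 of their 76 genes were higher and 0 lower, against 8.9% and 8.41% of all genes. MTO1, which modifies mitochondrial tRNAs, stood at 61.3, 53.8 and 51.3 CPM in sgCtrl and 70.6, 69.5 and 70.4 CPM in sgCOX4I1. This was the nearest to the threshold (log2 fold change 0.34, standard error 0.08, adjusted p = 0.0504 from edgeR). PDE12, which trims poly(A) tails, had 0.32, and GUF1, a translation factor for stalled ribosomes, had 0.26. C1QBP, an RNA-binding matrix protein, had 0.19, RRM2B, a ribonucleotide reductase subunit, had 0.21, and TYMP, thymidine phosphorylase, had 0.43 with overlapping groups.

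The nuclear subunits of the respiratory complexes had medians between 0.03 and 0.05 on the log2 scale. The 2 subunits with the smallest p had log2 fold changes of 0.21 for NDUFS1 and 0.32 for NDUFA8 in Complex I, and 0.19 for UQCRC2 and 0.24 for UQCRQ in Complex III. Beside the targeted gene, COX5A of Complex IV had 0.15, and ATP5F1B and ATP5MC1 of Complex V had 0.19 and 0.21. None of the 4 lists held a called gene. At an unadjusted p under 0.05, 4 of their 74 genes were higher and 1, COX4I1, was lower, against 8.9% and 8.41% of all genes.

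Of 9 tested regulators of mitochondrial biogenesis, NRF1 and MYC were furthest from 0. NRF1, a factor that binds promoters of many nuclear genes for mitochondrial proteins, stood at 28.6, 31.7 and 30.2 CPM in sgCtrl and 24.0, 23.9 and 23.8 CPM in sgCOX4I1. All sgCOX4I1 libraries were lower, and nearly equal to each other (log2 fold change -0.34, standard error 0.09, adjusted p = 0.0750 from edgeR). MYC, a growth regulator, stood at 539, 488 and 425 CPM against 606, 581 and 565 CPM (log2 fold change 0.27, adjusted p = 0.139 from edgeR).

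**Figure D5:**
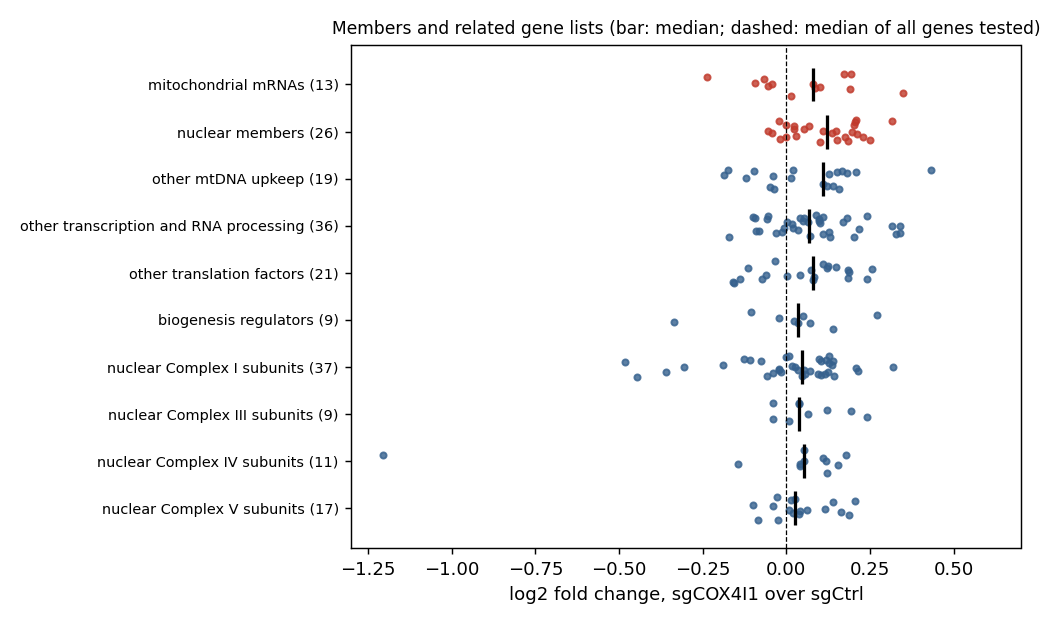
Log2 fold change of sgCOX4I1 over sgCtrl (horizontal axis) for the members (red) and the related lists (blue), 1 point for each gene, with black bars for list medians and a dashed line for the median of all genes tested, -0.0023. The nuclear members have a median of 0.12 and the mitochondrial mRNAs of 0.08, and the isolated point at -1.21 is COX4I1.

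The promoters of the nuclear members were searched for letters of the kind that NRF1 binds, GCGCATGC on either strand, in windows from 250 bases before to 50 bases after the start (RefSeq, GRCh38.p14). A window was present for 25 of the 26 nuclear members. It held a match for 4 of them, MTPAP, POLRMT, TFB1M and TFB2M, which is 16.0%, against 3.05% of all 35116 windows. One match per gene is shown on the strand of the gene with the motif in capitals.
TFB2M, chr1:246566262-246566296, minus strand: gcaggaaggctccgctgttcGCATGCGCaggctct
TFB1M, chr6:155314589-155314636, minus strand: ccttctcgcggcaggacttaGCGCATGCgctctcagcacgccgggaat
MTPAP, chr10:30349319-30349366, minus strand: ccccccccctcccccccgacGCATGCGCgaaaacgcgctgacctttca
POLRMT, chr19:633538-633581, minus strand: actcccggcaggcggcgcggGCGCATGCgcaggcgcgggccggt
In TFB1M and POLRMT the letters also match on the other strand at an overlapping position. The genes with a match had log2 fold changes of 0.25 for TFB2M, 0.14 for TFB1M, 0.03 for POLRMT and -0.02 for MTPAP. Letters bound by ETS factors such as GABPA, CCGGAAG on either strand, were in the windows of 12 of the 25 members, 48.0%, against 10.3% of all windows. Members were counted by gene, and the background by window over all 35116, whether or not the gene was expressed here. The shares are therefore not like for like. A match describes the letters in these windows and does not show binding.

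The 13 mitochondrial mRNAs together had a median log2 fold change of 0.08 with 8 above 0, and this sign rested on single libraries. Without sgCtrl #1 the median was -0.09, without sgCOX4I1 #3 it was -0.13, and without both #1 libraries it was 0.01. The 26 nuclear members had a median of 0.12 with 22 above 0, and it stayed between 0.06 and 0.17 in these settings and when any other library was left out. In the main fit, the standard errors had a median of 0.17 for the mitochondrial mRNAs and 0.08 for the nuclear members. Smaller differences could thus be resolved for the latter in that fit. With the guide number as a block, MT-ND4, MT-CO1 and MT-ND5 had standard errors of 0.056, 0.051 and 0.049. Without the block these were 0.18, 0.20 and 0.23. MT-ATP8 stayed wide, at 0.15 with the block and 0.17 without it.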

How the data were processed

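A table of raw counts of reads on 19845 gene symbols in 6 libraries was deposited by the authors, not normalized, and every column of values in the table was used. The methods describe Bowtie2 and RSEM with GRCh38.p14, whereas the submitters' processing notes name STAR 2.6.0a and edgeR, and the column names point to STAR and duplicate marking and the table's name to HTSeq. The letter (C or K) and number in each column name gave its sample.

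The computed values used R 4.3.3. Differences were tested with edgeR 4.0.16 on the deposited counts (TMM, its filter on low counts, quasi-likelihood test without covariates, all 6 libraries), adjusting p by Benjamini-Hochberg over 11861 genes, with a threshold of 0.05. CPM are counts per 1000000 of the TMM-normalized library size. Standard errors are the log2 fold change divided by the root of F, and 95% intervals use the total degrees of freedom of that test. The exact permutation test over 3 against 3 libraries cannot go below p = 0.1, so it was not used. Alternatives were DESeq2 1.42.0, limma-voom with limma 3.58.1, no TMM, TMM without the mitochondrial rows, no filter, at least 10 counts in every library, the guide number as a block, and each library left out. Leaving out both #1 libraries, and the ratio of Complex I to Complex IV mRNAs, were added after seeing the data. On simulated counts with 200 genes changed 3-fold, edgeR recovered 190 among 11839 genes and called 14 others. Smaller changes, of the size estimated for the members, were not simulated.

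Positions, transcript lengths (Ensembl canonical transcripts) and exon sharing came from GENCODE on GRCh38. All 39 members were named, with values per library for the mitochondrial mRNAs and for members with an unadjusted p under 0.05. In each related list the 2 genes with the smallest p were named. The members and lists were chosen with earlier results of these data known. Each library is 1 culture with its own guide.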

Additional observations from a re-analysis of the deposited data

How the results depend on the processing

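The count of members called was 0 in the main test, 1 with DESeq2 and 1 without a filter on low counts, in both cases MT-ND3, and 8 with the replicate block. Under the block, FASTKD2, GFM1, LRPPRC, MT-ND3, MT-ND4, MT-ND4L, TFAM and TFB2M were called, all higher. The block fit called 723 of 11861 genes, 6.1%, higher, and 1408, 11.9%, in both directions together. Samples with the same number deviated together for #1 and #3 (correlations 0.382 and 0.294) but not for #2 (-0.0244), and 4 of 6 libraries correlated best with their own number, so the numbers were not taken as a pairing. Over all genes, 247 were called in the main test, 466 with DESeq2, 537 without a filter and 487 without both #1 libraries. Leaving out 1 library gave 24 (without sgCtrl #2) to 561 (without sgCtrl #1) called genes, with 51 without sgCOX4I1 #2 and 89 without sgCOX4I1 #3, and 0 members each time.

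Of 546 log2 fold changes of members under 14 alternatives, 500 kept their direction, and 21 members never changed it. The other 18 were uncalled in the main test and crossed 0 when 1 library was left out. Their ranges were -0.17 to 0.22 for MT-ND1, -0.023 to 0.36 for MT-ND2, -0.043 to 0.36 for MT-ND4, -0.30 to 0.21 for MT-ND5, -0.58 to 0.17 for MT-ND6, -0.13 to 0.30 for MT-CYB and -0.29 to 0.16 for MT-CO1. They were -0.095 to 0.088 for MT-CO2, -0.22 to 0.046 for MT-CO3, -0.25 to 0.14 for MT-ATP6, -0.13 to 0.22 for MT-ATP8, -0.011 to 0.074 for POLRMT, -0.067 to 0.045 for POLG2 and -0.045 to 0.15 for SSBP1. For FASTKD5 the range was -0.0096 to 0.082, for MTPAP -0.080 to 0.012, for TUFM -0.037 to 0.029 and for TSFM -0.069 to 0.11. POLG2 was -8.77e-05 with DESeq2, -9.95e-06 with TMM factors from the nuclear genes and -0.00015 with at least 10 counts in every library, TUFM was -0.00021 with DESeq2, -0.00014 with nuclear TMM factors and -0.00056 with the block, and TSFM was -0.0054 without both #1 libraries. The share of mitochondrial mRNAs, their ratio to nuclear subunits and the ratio of Complex I to Complex IV mRNAs moved by less than 1 SD of the libraries in every setting run. Depth limits MT-ATP8 most, at 143 to 357 counts per library.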
